A study of Mus musculus with 8 samples.

Results

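Collagens, laminins and integrins were described across 20 cell clusters of mouse dorsal root ganglion. The members were every gene of the authors' deposited table named Col with a number, the letter a and a second number, or Lama, Lamb or Lamc with a number, or with a name starting Itga or Itgb. The rule found 61 of the 9229 genes in the table: 32 collagens, 8 laminins and 21 genes of the Itga and Itgb kind. Of these 21, 12 encode integrin α subunits and 7 encode β subunits, and Itgb3bp and Itgbl1 carry the name without being subunits. Of 87 genes of these families sorted by role, 26 have no entry in the table, among them Col4a6, Col7a1, Lama1, Lamb3, Itga10, Itga11 and Itgb6, and they were not analysed here.

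The ganglia hold the cell bodies of somatosensory neurons and came from C57BL/6 mice between 21 and 30 days of age, with the ganglia of 4 mice in each sample. Every group received NMP labelling, a 30 min incubation of dissociated, still living cells in antibody against the β5 subunit of the proteasome, so that cells with proteasome exposed at the surface (the neuronal membrane proteasome, NMP) could be sorted. The labels give 4 NMP-positive and 4 NMP-negative samples of droplet single-cell RNA sequencing, and the descriptions of each set name 4 lanes of 1 library, so neither population had a biological replicate. The table has no sample column, so every value below compares a cluster with the other cells, and NMP-positive and NMP-negative cells were not compared.

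Collagens are secreted proteins of 3 chains wound into a helix. Fibrillar collagens give tissue its tensile strength, whereas collagen IV forms the sheet-like network of basement membranes. Laminins, assembled from an α, a β and a γ chain, form the other network of basement membranes. Integrins are receptors of an α and a β subunit, and some of them anchor cells to collagens or laminins. In a ganglion, satellite glia wrap the neuron bodies, Schwann cells wrap the axons, and both cell types, like blood vessels, rest on a basement membrane.

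The authors named 10 clusters after sensory neuron classes, 3 by low numbers of transcripts (Low.UMI) and 7 as Unknown. These groups held 40.8%, 28.6% and 30.7% of all cells, as solved from the detection fractions in the authors' deposited table. The tissue label names neurons only, but 8 of 8 sensory neuron markers were lower in each Unknown cluster. The authors' deposited table has 8 of 8 endothelial markers higher in Unknown.1, 8 of 8 satellite glia markers in Unknown.2, 8 of 8 mural cell markers in Unknown.3 and 8 of 8 myelinating Schwann cell markers in Unknown.4. The fibroblast list, which holds no collagen, had 8 of 8 markers higher in Unknown.5 and 7 of 8 in Unknown.6, and the macrophage list had 8 of 8 higher in Unknown.488p. These clusters are therefore called endothelial-like, satellite-glia-like, mural-like, Schwann-like, fibroblast-like (Unknown.5 and Unknown.6) and macrophage-like. The names are not exclusive in the authors' deposited table: 4 of 8 satellite glia markers were also higher in Unknown.4, 3 of 8 Schwann markers in Unknown.2 and 2 of 8 mural markers in Unknown.5, and no other list had more than 2 markers higher in another list's cluster.

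Higher and lower below mean a deposited adjusted p under 0.05 in the cluster against all other cells, by the sign of the log2 fold change. The p treats cells as units, and the clusters were made from the same values, so this is a filter and not a test of the members. Each listed pair of gene and cluster has a log2 fold change of at least 0.25 in size and at least 10% of cells on 1 side. No listed pair has an unadjusted p above 0.01. A pair can be missing through any of these limits, so a pair that is not listed was not read as absence. Log2 fold changes, followed in brackets by the shares of cells with the transcript in the cluster and in the others, are those of the authors' deposited table. The numbers of cells and of transcripts per cell are not given, so no interval was attached.

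Calls of matrix and adhesion genes as higher were most frequent in the Unknown clusters. In the 7 Unknown clusters, 140 of 427 possible pairs of member and cluster were higher (32.8%) in the authors' deposited table, against 10.2% of the pairs of all genes. Lower calls there numbered 30, or 7.03% of member pairs, against 27.1% for all genes. The 10 neuron clusters had the reverse balance, with 11 higher and 90 lower of 610 pairs (1.8% and 14.8%), against 10.9% and 6.72% of all genes. In the 3 Low.UMI clusters, 1 of 183 pairs was higher and 58 were lower (0.546% and 31.7%), where all genes gave 10.9% and 20.6%. Each cluster is set against all other cells, so a member high in the Unknown clusters tends to have a negative fold change in the rest. Col1a2 lay between -1.6 and -1.55 in the 9 neuron clusters listed for it, and Col18a1 between -0.44 and -0.42 in 8. Lower calls in the neuron and Low.UMI clusters, here and below, were therefore not read as separate from the higher calls in the Unknown clusters. A gene enters the table only where it passed the minima in some cluster, so these counts describe the members that entered it.

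**Figure D1:**
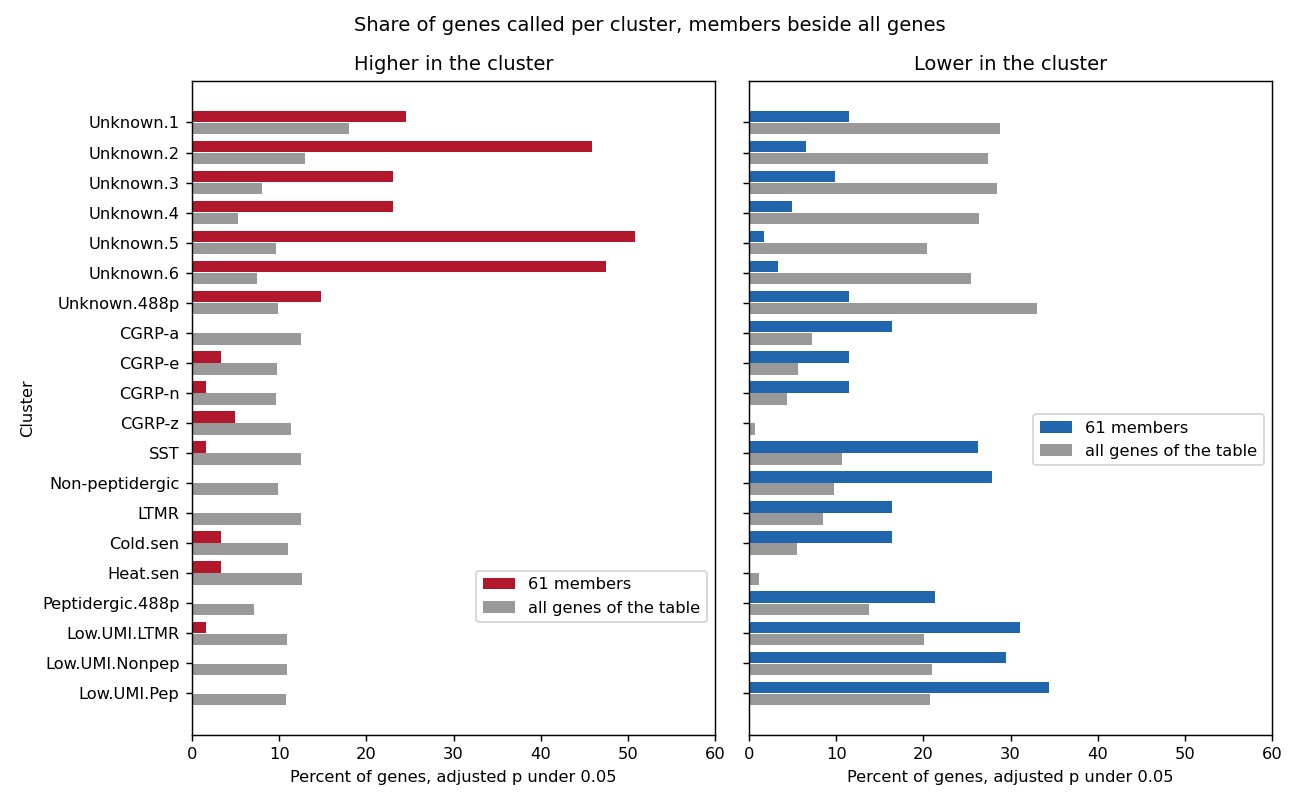
Share of genes called higher (left) and lower (right) in each of the 20 clusters, in percent of the 61 members (coloured bars) and of all genes of the table (grey bars). The members' share of higher calls is above the grey bar in all 7 Unknown clusters, from 14.8% in Unknown.488p to 50.8% in Unknown.5, and below it in the 13 other clusters.

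Fibroblast-like cells carried the most members. Unknown.5 had 31 of 61 higher, where 9.67% of all genes were, and Unknown.6 had 29, where 7.39% of all genes were. The satellite-glia-like Unknown.2 followed with 28 (all genes 13%), then the endothelial-like Unknown.1 with 15 (all genes 18%), the mural-like Unknown.3 and the Schwann-like Unknown.4 with 14 each (all genes 8.05% and 5.21%), and the macrophage-like Unknown.488p with 9 (all genes 9.91%). Lower members numbered 7 in Unknown.1 and in Unknown.488p (28.8% and 33% of all genes), 6 in Unknown.3 (28.4%), 4 in Unknown.2 (27.4%), 3 in Unknown.4 (26.4%), 2 in Unknown.6 (25.5%) and 1 in Unknown.5 (20.4%). Median log2 fold changes of the listed members were 1.53 in Unknown.6, 1.19 in Unknown.5, 0.86 in Unknown.3, 0.69 in Unknown.2 and Unknown.4, 0.57 in Unknown.1 and -0.37 in Unknown.488p, whereas those of all listed genes lay between -0.40 and -0.31. Of the 61 members, 60 were higher in at least 1 cluster and 56 had their largest fold change in an Unknown cluster. The authors' deposited table has 15 members higher in exactly 1 cluster, 30 in 2 or 3 clusters and 15 in 4 or more. These counts per member were not made over all genes, and every gene of the table passed its limits in some cluster. They therefore describe the members and do not set them apart from other genes.

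**Figure D2:**
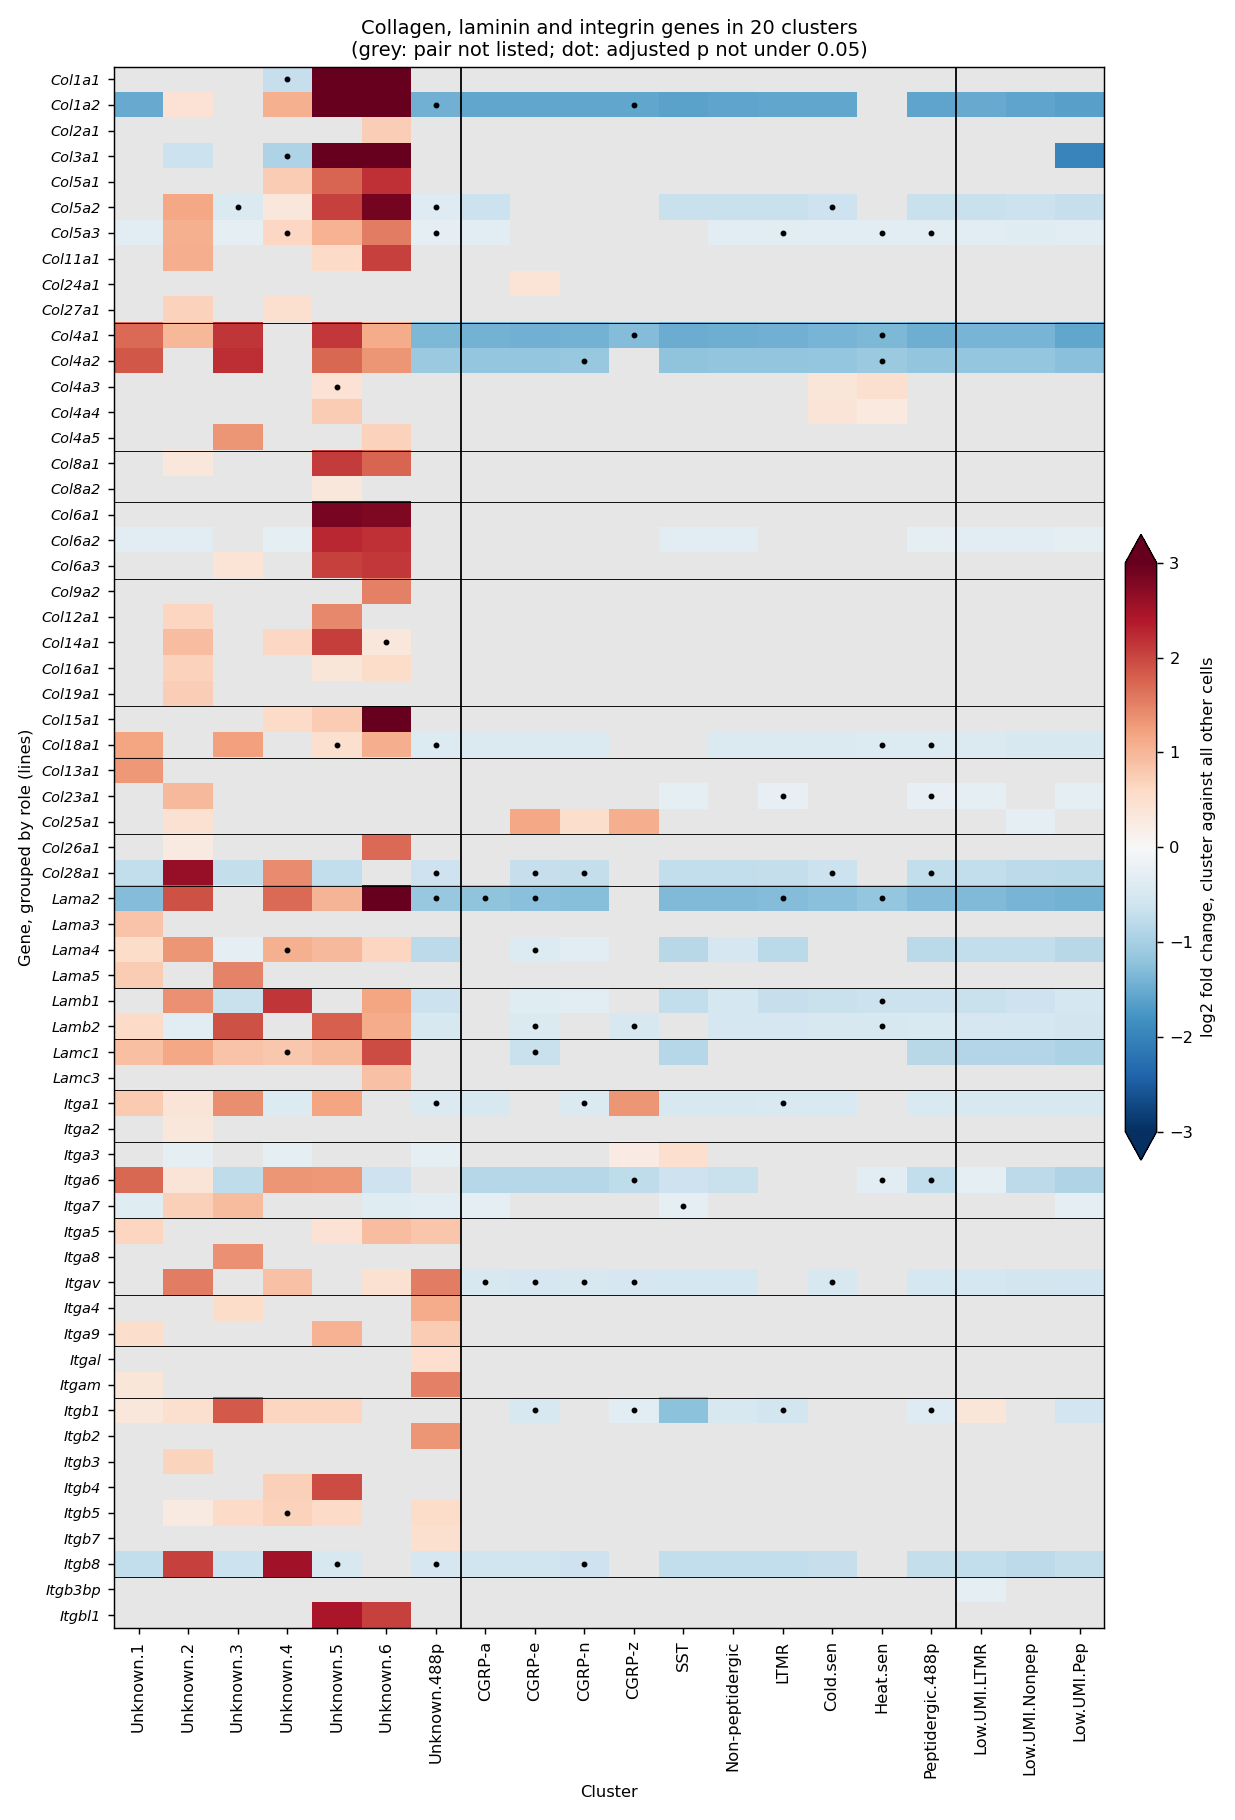
Deposited log2 fold change of each member (rows, grouped by role) in each of the 20 clusters (columns), red for positive and blue for negative with full colour from 3 in size, grey for pairs that are not listed and a dot where the adjusted p filter was not passed. Fibrillar and beaded filament collagens are reddest in Unknown.5 and Unknown.6, collagen IV and several laminins extend to Unknown.1, Unknown.2 and Unknown.3, and leukocyte integrins appear in Unknown.488p.

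Fibrillar collagens led the fibroblast-like clusters. Col1a1, a chain of the collagen I of skin, bone and nerve sheath, had a log2 fold change of 5.15 in Unknown.6, with the transcript in 100% of cells against 4.6% of the others, and of 3.37 in Unknown.5 (96.8% against 4.1%). Col1a2, its partner chain, reached 4.65 in Unknown.6 and 3.29 in Unknown.5 in the authors' deposited table, and was also higher in Unknown.4 (1.06, 63.0% of cells against 15.8%) and Unknown.2 (0.43, 69.7% against 11.9%). Col1a1 was not called in these glial-like clusters: it was detected in 11.4% of Unknown.4 cells, with a log2 fold change of -0.70 that did not pass the filter, and was not listed for Unknown.2.

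Col3a1, the chain of collagen III found beside collagen I, had log2 fold changes of 4.82 in Unknown.6 and 4.33 in Unknown.5 in the authors' deposited table. In Unknown.2 its fold change and its share of cells point opposite ways: the fold change was -0.64, yet the transcript was in 23.1% of cells against 7.4% of the others. Collagen V and XI chains, which sit inside collagen I fibrils and set their width, were higher in 3 or 4 Unknown clusters each. Col5a2 was higher in Unknown.6 (2.86), Unknown.5 (2.06), Unknown.2 (1.16) and Unknown.4 (0.35), and Col5a1 in Unknown.6 (2.19), Unknown.5 (1.74) and Unknown.4 (0.76), all in the authors' deposited table. Col5a3 was higher in Unknown.6 (1.54), Unknown.2 (1.07) and Unknown.5 (1.05), and Col11a1 in Unknown.6 (2.04), Unknown.2 (1.10) and Unknown.5 (0.57). Both were therefore higher in satellite-glia-like cells, with Col11a1 in 45.5% of them against 4.4% of other cells. Col2a1, the main collagen of cartilage, was higher in 1 cluster of the authors' deposited table, Unknown.6, at 0.73 and in 22.7% of cells against 0.2%. Col27a1 was higher in Unknown.2 (0.68) and Unknown.4 (0.48).

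Collagen VI, a beaded filament around cells, was higher in both fibroblast-like clusters for the 3 chains in the table. Col6a1 stood at 2.85 in Unknown.5 and 2.79 in Unknown.6, Col6a2 at 2.27 and 2.20 and Col6a3 at 2.05 and 2.12 in the authors' deposited table. Outside them, Col6a3 was higher in the mural-like Unknown.3 (0.41), whereas Col6a2 was lower in Unknown.1, Unknown.2 and Unknown.4, where it was in 0.6%, 0.0% and 0.5% of cells. Of the hexagonal network collagens, Col8a1 was higher in Unknown.5 (2.09), Unknown.6 (1.75) and Unknown.2 (0.35), and Col8a2 in Unknown.5 (0.33, 13.2% of cells against 0.4%).

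Several collagens of smaller groups were higher in few clusters. Col15a1, a multiplexin of the zone around basement membranes, reached 3.86 in Unknown.6 (90.1% of cells against 5.5%), and 0.76 in Unknown.5 and 0.57 in Unknown.4 in the authors' deposited table. Col18a1, the multiplexin from which endostatin is cut, was higher in Unknown.3 (1.22), Unknown.1 (1.18) and Unknown.6 (1.10). Col28a1 was the leading collagen of both glial-like clusters, at 2.61 in Unknown.2 (87.4% of cells against 4.4%) and 1.41 in Unknown.4 (44.3% against 11%), and the authors' deposited table has it higher in no other cluster. Among fibril-associated collagens, Col14a1 was highest in Unknown.5 (2.08), Col12a1 in Unknown.5 (1.44) and Col16a1 in Unknown.2 (0.69), and each was higher in more than 1 cluster. Col9a2 was higher in Unknown.6 alone (1.52, 43.3% of cells against 1.8%) and Col19a1 in Unknown.2 alone (0.74, 26.3% against 1.6%) in the authors' deposited table. Col26a1 was higher in Unknown.6 (1.71) and Unknown.2 (0.27). Of the collagens that span the membrane, Col13a1 was higher in endothelial-like cells alone (1.29, 35.5% against 0.6%), and Col23a1 in satellite-glia-like cells alone (0.97, 40.2% against 8.5%).

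Collagen IV chains were higher in overlapping sets of clusters, and Cold.sen and Heat.sen had Col4a3 and Col4a4 higher but neither Col4a1 nor Col4a2. The 6 collagen IV genes lie in the genome as 3 pairs that start back to back on opposite strands, Col4a1 with Col4a2, Col4a3 with Col4a4 and Col4a5 with Col4a6, and the sequence at the starts of the first pairs is shown because the members of each were higher in nearly the same clusters. Coordinates are of the mouse build GRCm38.p6, the sequences are from RefSeq, and both are given on the plus strand. The Col4a1 and Col4a2 starts overlap by 22 bases at chr8:11312805-11312826, and the 71 bases between the Col4a4 and Col4a3 starts lie at chr1:82586850-82586920. Capitals mark GGGCGG.
Col4a1 and Col4a2 start overlap: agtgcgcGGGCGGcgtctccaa
between Col4a4 and Col4a3: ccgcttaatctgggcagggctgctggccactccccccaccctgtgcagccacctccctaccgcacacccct

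The CCAAT box (CCAAT), the GC box (GGGCGG) and the TATA box (TATAAA) were searched on both strands. The GC box begins at base 8 of the first stretch, and it is in 4.09% of the stretches of that length that begin at 32851 RefSeq starts, since the overlap is the first part of both transcripts. The CCAAT box and the TATA box are not in the first stretch, and 2.28% and 0.508% of such stretches hold them. In the 300 bases around the Col4a1 start and around the Col4a2 start there is a CCAAT box and a GC box. Of all such windows, 37.4% and 35.7% hold these. None of these motifs is in the second stretch, where stretches of that length just before the starts hold them at 13.3% (CCAAT box), 20.7% (GC box) and 4.41% (TATA box) of starts. These matches are descriptions of the letters and say nothing of binding.

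Col4a1 and Col4a2, the chains of nearly every basement membrane, were broad. In the authors' deposited table Col4a1 was higher in Unknown.3 (2.15, 90.3% of cells against 24.6%), Unknown.5 (2.12), Unknown.1 (1.71), Unknown.6 (1.11) and Unknown.2 (1.00, 82.2% against 21.5%). Col4a2 was higher in Unknown.3 (2.21), Unknown.1 (1.86), Unknown.5 (1.73) and Unknown.6 (1.33) and was not listed for Unknown.2, Unknown.4 and CGRP-z. Neither was higher in the macrophage-like cluster, where both were in 3.4% of cells and lower.

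Col4a3 and Col4a4, chains known from kidney and other specialised basement membranes, were higher in the neuron clusters Cold.sen and Heat.sen. Col4a3 was in 54.1% of Heat.sen cells against 3.8% of the others (log2 fold change 0.48) and in 45.1% of Cold.sen cells against 2.5% (0.37). Col4a4 was in 45.9% of Heat.sen cells against 5.3% (0.29) and in 49.4% of Cold.sen cells against 3.8% (0.39) in the authors' deposited table. Both were also listed for the fibroblast-like Unknown.5, Col4a4 at 0.75 (20.0% of cells) and Col4a3 at 0.44 (11.1%), of which Col4a3 did not pass the filter. Col4a5 was higher in the mural-like Unknown.3 (1.33, 40.1% against 1.6%) and in Unknown.6 (0.70).

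Laminin α chains were higher in overlapping sets of clusters. Lama2, the α chain of muscle and Schwann cell laminin, was higher in Unknown.6 (4.03, 100% of cells against 15.1%), Unknown.2 (1.92), Unknown.4 (1.70) and Unknown.5 (1.03) and lower in Unknown.1 (-1.30, 1.7% of cells). Lama5, an α chain of vessel and epithelial laminins, was higher in Unknown.3 (1.49, 52.9% against 4.5%) and Unknown.1 (0.76), and Lama3 was higher in Unknown.1 alone (0.86) in the authors' deposited table. Lama4, found in vessels and nerve, was higher in Unknown.2 (1.33), Unknown.5 (0.98), Unknown.6 (0.65) and Unknown.1 (0.56) and lower in Unknown.3 (-0.29). Lama5 was thus a call of the endothelial-like and mural-like clusters, and Lama2 of the glial-like and fibroblast-like clusters.

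Both β chains were higher in Unknown.6, and each was higher in clusters where the other was not. In the authors' deposited table Lamb1 led in Unknown.4 (2.15, 67.6% of cells against 26.4%), followed by Unknown.2 (1.37) and Unknown.6 (1.18), and was lower in the mural-like Unknown.3 (-0.67, 1.4% of cells). Lamb2 led in Unknown.3 (1.91, 70.9% against 16.7%), followed by Unknown.5 (1.79), Unknown.6 (1.11) and Unknown.1 (0.58), and was lower in Unknown.2 (-0.33, 6.4%). Lamc1, the γ chain shared by most laminins, was higher in Unknown.6 (1.95), Unknown.2 (1.16), Unknown.5 (0.96), Unknown.1 (0.91) and Unknown.3 (0.86), and its value in Unknown.4 (0.80) did not pass the filter. Lamc3 was higher in Unknown.6 alone (0.87, 23.4% against 1.5%).

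Among collagen-binding integrins, Itga1, which pairs with β1, was higher in Unknown.3 (1.40), Unknown.5 (1.19), Unknown.1 (0.79), Unknown.2 (0.39) and the neuron cluster CGRP-z (1.33) in the authors' deposited table. In CGRP-z it was in 89.7% of cells against 11.9% of the others. The second, Itga2, was higher in Unknown.2 alone (0.33, 11.8% against 1.2%).

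Of the laminin-binding subunits, Itga6 and Itga7 were both higher in Unknown.2, and Itga3 was higher in neuron clusters alone. Itga6 was highest in the endothelial-like Unknown.1 (1.72, 73.6% of cells against 24.6%), and was also higher in Unknown.4 (1.32), Unknown.5 (1.29) and Unknown.2 (0.38) in the authors' deposited table. It was lower in Unknown.3 (-0.76, 2.1% of cells) and Unknown.6 (-0.61, 4.3%). Itga7, known from muscle, was higher in Unknown.3 (0.96) and Unknown.2 (0.72). Itga3 was higher in SST at 0.50 (90.5% of cells against 24.9%) and in CGRP-z at 0.25 (80.4% against 28.0%), and it was in 0.6%, 0.5% and 0.7% of cells in Unknown.2, Unknown.4 and Unknown.488p, where it was lower.

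Of the subunits that read the RGD sequence of fibronectin and vitronectin, Itgav was higher in Unknown.2 and Unknown.488p (1.53 in both), Unknown.4 (0.89) and Unknown.6 (0.46). Itga8 was higher in the mural-like Unknown.3 alone (1.36, 39.8% against 4.4%), and Itga5, the fibronectin receptor, was higher in Unknown.6 (0.92), Unknown.488p (0.84), Unknown.1 (0.64) and Unknown.5 (0.44) in the authors' deposited table. Itgb8, which with αv can activate latent TGF-β, led the β subunits of the glial-like clusters: 2.52 in Unknown.4 (68.0% of cells against 13.2%) and 2.05 in Unknown.2 (78.2% against 8.5%). Itgb4, the partner of α6 in epithelia and Schwann cells, was higher in Unknown.5 (1.95, 43.7% against 3.9%) and Unknown.4 (0.72). Itgb3 was higher in Unknown.2 alone (0.67), and Itgb5 in Unknown.3, Unknown.5, Unknown.488p and Unknown.2 (0.58, 0.58, 0.56 and 0.27).

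Itgb1, the β subunit shared by most matrix receptors, was the member found in the most cells (68.7% of all cells). It was higher in Unknown.3 (1.83, 95.2% of cells against 67.7%), Unknown.4 and Unknown.5 (0.65 in both), Unknown.2 (0.48) and Unknown.1 (0.33) in the authors' deposited table. In Unknown.4 the transcript was in fewer cells than elsewhere (61.6% against 69.0%), so the fold change and the share of cells differ in direction there.

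The macrophage-like cluster had the leukocyte integrins. Itgb2, the β subunit of leukocytes, was in 39.0% of Unknown.488p cells and 0.1% of the others (1.32). Its α partners Itgam (1.5, 38.4% against 1.7%) and Itgal (0.51, 10.3% against 0.5%) were higher there too, as were Itga4 (1.11), Itga9 (0.77) and Itgb7 (0.48) in the authors' deposited table. Itga4 was also higher in Unknown.3 (0.55), Itga9 in Unknown.5 (1.04) and Unknown.1 (0.52), and Itgam in Unknown.1 (0.36). No macrophage marker was higher in Unknown.1. Of the 2 genes that are not subunits, Itgbl1 was higher in Unknown.5 (2.44, 64.2% against 1.4%) and Unknown.6 (2.05), and Itgb3bp was listed for Low.UMI.LTMR alone, where it was lower (-0.28).

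Neurons had few matrix calls of their own. Only 6 members were higher in any named neuron cluster of the authors' deposited table: Col24a1, Col25a1, Col4a3, Col4a4, Itga1 and Itga3. Col25a1, a membrane-spanning collagen of neurons, was higher in CGRP-e (1.15, 45.7% of cells against 7.5%), CGRP-z (1.08, 68.2% against 8.5%), CGRP-n (0.52) and the satellite-glia-like Unknown.2 (0.45). Col24a1, a fibrillar collagen, was higher in CGRP-e alone (0.40, 59.8% against 2.7%). Higher members numbered 3 in CGRP-z (11.3% of all genes were higher there), 2 each in CGRP-e (9.77%), Cold.sen (11%) and Heat.sen (12.6%), and 1 each in CGRP-n (9.61%) and SST (12.5%). CGRP-a, LTMR, Non-peptidergic and Peptidergic.488p had 0, where 12.5%, 12.5%, 9.86% and 7.05% of all genes were higher, and no member was listed for them with a positive fold change at any deposited p.

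Among the named neuron clusters, lower members were most numerous in Non-peptidergic with 17 (9.71% of all genes) and SST with 16 (10.7%). Peptidergic.488p had 13 (13.8%), CGRP-a, LTMR and Cold.sen had 10 each (7.26%, 8.46% and 5.44%), and CGRP-e and CGRP-n had 7 each (5.65% and 4.32%). CGRP-z and Heat.sen had 0 (0.715% and 1.18% of all genes), with 6 and 8 members listed at a negative fold change that did not pass the adjusted p filter. Low.UMI.Pep had 21 lower members (20.7% of all genes), Low.UMI.LTMR had 19 (20.1%) and Low.UMI.Nonpep had 18 (21%). In turn, Low.UMI.LTMR had 1 higher member (10.9% of all genes), whereas the other two had 0 (10.8% and 10.9%), with no member listed there at a positive fold change.

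A lower call did not always mean fewer cells with the transcript. In 11 of the 90 lower calls in neurons (12.2%, against 46.5% of all lower calls there) the transcript was nevertheless found more often inside the cluster than outside it. Lamb1 was in 64.5% of CGRP-e cells against 25.8% at a log2 fold change of -0.36, and in 60.4% of Non-peptidergic cells against 25.8% at -0.52. Lama4 was in 69.7% of Non-peptidergic cells against 32.5% at -0.50 in the authors' deposited table. Other neuron clusters had low shares. Lamb1 and Lama4 were in 2.2% each of SST cells, in 9.4% and 8.4% of LTMR cells and in 10% and 7.8% of Peptidergic.488p cells. Itgb1 was in 99.5% of Non-peptidergic cells against 67.0% at -0.48, and in 90% of SST cells against 67.4% at -1.22.

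Transcripts of the abundant matrix genes were also found at low shares in clusters where their fold change was negative, whether or not it passed the filter. Col1a2 was in 3.5% to 9.3% of cells of the neuron clusters for which it is listed, in 1.9% of Unknown.1, in 4.8% of Unknown.488p and in 0.4% to 0.7% of the Low.UMI clusters. Col4a1 was in 1.3% to 19.6% of cells over the neuron clusters and in 0.1% to 1.3% over the Low.UMI clusters of the authors' deposited table. The number of transcripts per cell is not in the table, so these low shares were not read as expression, and the part of free RNA in them was not tested. In the Low.UMI clusters the 1 higher call, Itgb1 in Low.UMI.LTMR (0.36), went with a smaller share of cells (33.0% against 69.8%). Such opposite directions held for 95.3% of all higher calls in those clusters.

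The shares of cells also show where the positive cells lie. Fold changes weight cells by transcript level, whereas the share of all cells with a transcript counts each cell once. Unknown.5 and Unknown.6, with 2.42% and 1.79% of all cells, had the largest collagen fold changes, but the positive cells were shared out differently. For Col4a1, found in 27.0% of all cells, the listed Unknown clusters held 81.8% of the cells with the transcript. For Col1a2 they held 72.9%, for Lama2 79.3% and for Itgb8 63.1%. Other members had lower shares there, such as Lama4 (41.9%), Lamb1 (34%), Itgb1 (30.7%) and Itga7 (19.8%). Part of the positive cells of these members lay in clusters for which they are not listed, and these can be neuron clusters. Lama4 was not listed only for CGRP-a, CGRP-z, Cold.sen and Heat.sen, where a mean of 74.1% of cells had the transcript. Col5a3 was not listed only for CGRP-e, CGRP-n, CGRP-z and SST, at a mean of 40.7% of cells. A missing call in neurons thus did not mean few cells with the transcript. Itga3 was listed for 5 clusters that held 22.5% of its positive cells, so the place of the others is not known.

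**Figure D3:**
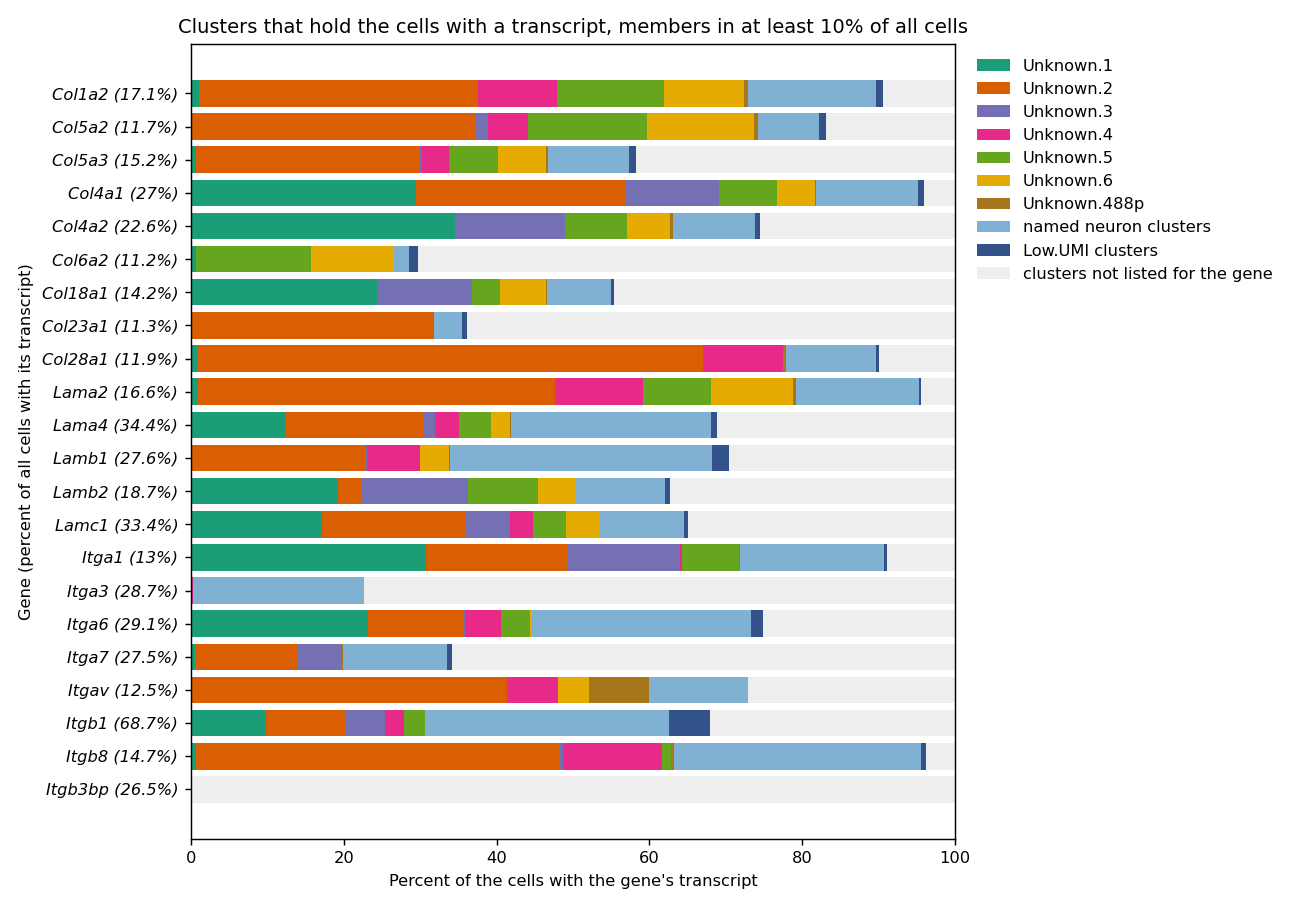
For the 22 members found in at least 10% of all cells (rows, with that share), the percent of the cells with the transcript that lie in each Unknown cluster, in the named neuron clusters and in the Low.UMI clusters for which the member is listed (stacked bars), with clusters that are not listed in pale grey. Of the cells with Col4a1 and Lama2, 81.8% and 79.3% lie in Unknown clusters, but of those with Lamb1 and Itgb1 34% and 30.7% lie in the listed ones. Most of the bar of Itga3 is pale grey, so its cells could not be placed.

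To set clusters against each other, each fold change was re-expressed against all cells with the shares solved above, which gives a common scale. The 2 fibroblast-like clusters shared 21 of their higher members, 67.7% of the 31 in Unknown.5 and 72.4% of the 29 in Unknown.6. Of 24 members listed in both, 9 were larger in Unknown.5 and 15 in Unknown.6, with a median difference of -0.31 (Unknown.5 minus Unknown.6, log2). Col15a1 (-2.81), Lama2 (-2.69), Col11a1 (-1.41), Col1a1 (-1.38) and Col1a2 (-1.12) were larger in Unknown.6 by more than 1 log2 unit. Itga6 (1.84) and Col14a1 (1.63) were larger in Unknown.5 by more than 1. These differences have no test, since the table has no replicates. The overlap of higher calls over all genes was not counted for this pair or the pairs below, so the shared members are a description only.

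Between the glial-like clusters the comparison covers 19 members, and 17 of the 28 higher in Unknown.2 were not higher in Unknown.4, where Col11a1, Col23a1 and Itgb3 were not listed. Fewer genes of any kind were higher in Unknown.4 (481) than in Unknown.2 (1200), so this count was not read as a difference in matrix genes. No member of the 19 listed in both Unknown.2 and Unknown.4 differed by 1 log2 unit or more, and 11 members were higher in both, 39.3% of the 28 in Unknown.2 and 78.6% of the 14 in Unknown.4. Lama2 differed by -0.01, Itga6 was larger in Unknown.4 (-0.92) as was Lamb1 (-0.84), and Itga1 (0.74) and Col28a1 (0.72) were larger in Unknown.2. Between the vessel-type clusters, 8 members were higher in both, 53.3% of the 15 in Unknown.1 and 57.1% of the 14 in Unknown.3. Itga6 was larger in Unknown.1 by 2.19, whereas Itgb1 (-1.40), Lamb2 (-1.25) and Itga7 (-1.25) were larger in Unknown.3.

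**Figure D4:**
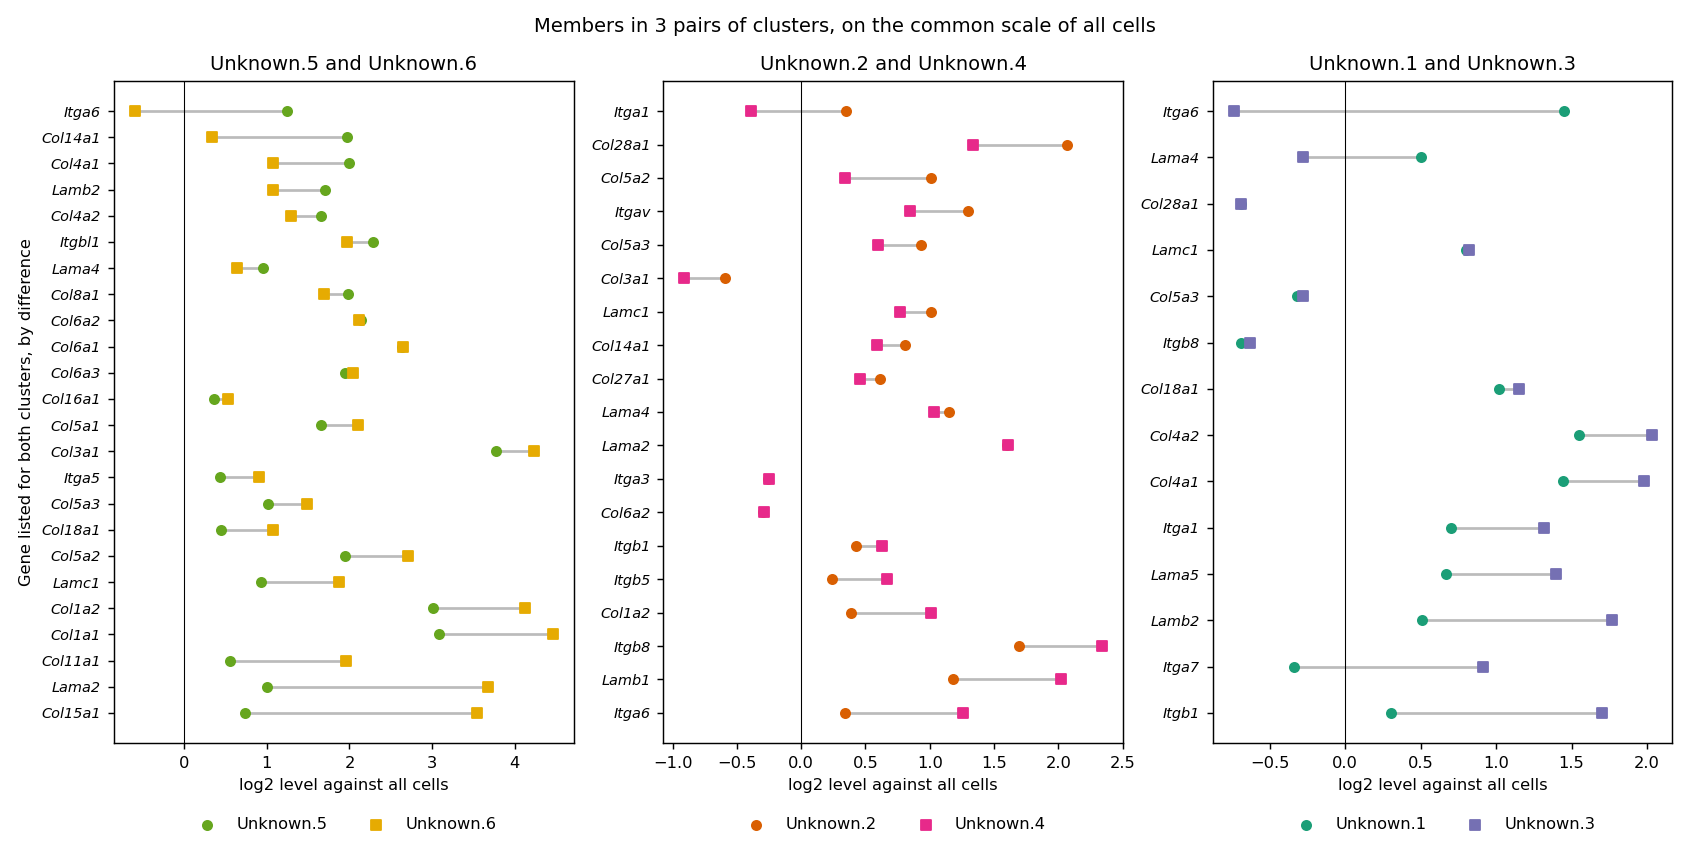
Log2 level against all cells of each member listed in both clusters of a pair (rows, ordered by difference), with 1 symbol per cluster, for Unknown.5 and Unknown.6, Unknown.2 and Unknown.4, and Unknown.1 and Unknown.3. The widest gaps are Col15a1 and Lama2 in the first pair (-2.81 and -2.69) and Itga6 in the third (2.19), and no gap in the second pair reaches 1.

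Partner genes of the same biology were counted from 7 lists, each taken whole. The counts are to be read beside the shares of all genes called in Unknown.1 to Unknown.6 and Unknown.488p. In that order, 18%, 13%, 8.05%, 5.21%, 9.67%, 7.39% and 9.91% of all genes were higher. The shares lower were 28.8%, 27.4%, 28.4%, 26.4%, 20.4%, 25.5% and 33%. Of 25 collagen processing and cross-linking genes in the table, 16 were higher in Unknown.5 (median log2 fold change of those listed 1.02) and 13 in Unknown.6 (0.94), against 4, 4, 3, 1 and 0 in Unknown.1, Unknown.2, Unknown.3, Unknown.4 and Unknown.488p. No more than 2 of them were lower in any Unknown cluster. Pcolce, an enhancer of procollagen cleavage, stood at 3.01 in Unknown.6 and 2.87 in Unknown.5, and Serpinh1, the collagen chaperone, at 2.86 and 2.60 in the authors' deposited table. Of 19 interstitial matrix genes, 17 were higher in Unknown.5 and 14 in Unknown.6, led by the small proteoglycans Dcn (5.73) and Lum (5.07) in Unknown.6. In Unknown.1, Unknown.2, Unknown.3, Unknown.4 and Unknown.488p, 3, 3, 5, 1 and 1 were higher and 3, 2, 3, 1 and 2 lower. Dcn was lower in each of these clusters. Dcn, Lum and Mfap5 are also in the fibroblast list that named these clusters, so these counts partly repeat the naming. Elastin (Eln) was highest in Unknown.3 (3.11). Dcn was also higher in the neuron cluster CGRP-z (1.91), in 96.3% of cells against 20.5%.

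Of 15 basement membrane partners, 9 were higher in Unknown.2, 8 each in Unknown.5 and Unknown.6, 6 in Unknown.1, 4 each in Unknown.3 and Unknown.4, and 0 in Unknown.488p. In the 10 neuron clusters 0 of their pairs were higher (all genes 10.9%), with none listed at a positive fold change, and 29 were lower (19.3%, all genes 6.72%). The lower pairs came from 4 genes only, Sparc, Sparcl1, Nid1 and Hspg2, repeated over clusters, so they do not describe the whole list. The partners included the laminin linker Nid1 (2.49 in Unknown.6) and the heparan sulfate proteoglycan perlecan, Hspg2 (1.82 in Unknown.4), in the authors' deposited table. A further list held 17 genes of laminin and collagen receptors outside the integrins and of their partners, such as dystrophin and the sarcoglycans. Of these, 10 were higher in Unknown.2, 8 in Unknown.5 and 7 in Unknown.3, while 9 were lower in Unknown.488p, 7 in Unknown.1 and 4 each in Unknown.3, Unknown.5 and Unknown.6. Over the Unknown clusters, 38 pairs of this list were higher and 32 lower (31.9% and 26.9%), beside 10.2% and 27.1% for all genes. The share lower was thus that of all genes. Dystrophin (Dmd), which ties the laminin receptor dystroglycan to the cytoskeleton, stood at 2.36 in Unknown.3 and 2.12 in Unknown.2, and the sarcoglycan Sgcd at 2.35 in Non-peptidergic neurons. Of 23 genes of integrin activation and adhesion adaptors, 13 were higher in Unknown.1, 9 in Unknown.5, 7 each in Unknown.2 and Unknown.488p, 6 in Unknown.3 and 1 each in Unknown.4 and Unknown.6. Lower genes of this list numbered 3, 4, 2, 5, 1, 2 and 7 in Unknown.1 to Unknown.6 and Unknown.488p. Fermt3, the kindlin of blood cells, stood at 1.47 in Unknown.488p. In the 7 Unknown clusters these 5 lists had 23.4% to 37.1% of their pairs higher, beside 10.2% for all genes.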

How the data were processed

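A single marker table, deposited by the authors, was the source of every value. Per the file headers it holds, for a gene and a cluster set against the remaining cells, a p-value and its adjusted form, the average log2 fold change, and 2 detection fractions (cells of the cluster, other cells), printed here as percent. Seurat is the tool that the submitters' processing notes name. Not given in the sources used here: aligner, build, annotation, cell filters, handling of doublets, and whether cells or nuclei were loaded. Adjusted values below 1 are the p-value multiplied by 32285.

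The members and lists were chosen with earlier results of these data known, and no test was run. The share of all cells in each cluster was solved by least squares from the deposited fractions, using 6748 genes whose fractions differ by 5 percentage points or more (residual 0.0256 percentage points, rounding alone 0.0289). Deposited fold changes, which are ratios of means with 1 added, were re-expressed against all cells with these shares. The method was tested on simulated data. Work used Python 3.11.15, numpy 2.4.6, pandas 2.3.3 and matplotlib 3.10.9. RefSeq promoter windows on GRCm38.p6 exist for 44 of the 61 members, and start sites are from GENCODE M21.

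The rule for named genes took every member by role, with values for the 6 largest fold changes among members higher in a cluster, the largest and smallest of each role, and members higher in 1 cluster. Values of further members were added after they were seen. List genes named were up to 3 per list and cluster group. The rule asked for those of largest fold change, but some genes with larger values were not named. Among these were Smoc2 (3.58 in Unknown.6) of the basement membrane partners and Apbb1ip (1.78 in Unknown.488p) of the adaptors. Alternatives changed the minima for fold change, detection and adjusted p and the settings of the cluster shares.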

Additional observations from a re-analysis of the deposited data

How the results depend on the processing

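Requiring an absolute log2 fold change of at least 1 lowered the higher and lower pairs to 77 and 4 in the Unknown clusters (3.81% and 4.42% of all gene pairs), 3 and 29 in the neuron clusters (1.15% and 0.881%), and 0 and 13 in the Low.UMI clusters (0.433% and 2.21%). Members higher then numbered 5 in Unknown.1, 10 in Unknown.2, 9 in Unknown.3, 6 in Unknown.4 and 4 in Unknown.488p (all genes 5.36%, 3.82%, 3.4%, 2.52% and 5.03%). Requiring 25% of cells on the higher side left 13, 30 and 20 lower pairs in the Unknown, neuron and Low.UMI clusters (all genes 25.2%, 4.68% and 16%), and 8 members higher in Unknown.4 (3.15%). Requiring the share of cells to differ in the direction of the fold change left 0 higher pairs in the Low.UMI clusters. Without the adjusted p filter, 13 of 13 counts stayed within 1.5 times. Leaving out Peptidergic.488p, chosen after seeing the data, kept both neuron counts within 1.5 times. Other settings for the cluster shares moved them by at most 0.0023 percentage points. No paired analysis was possible because the table has no sample columns and the 4 samples of each population are lanes of 1 library, and leaving out a replicate was not possible for the same reason. Depth per cell is not given, so a rare transcript and one missed at low depth cannot be told apart.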

Other observations

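Enzymes that cut matrix, and integrin ligands other than collagens and laminins, were counted in the same way. Of 12 matrix metalloproteinases and inhibitors in the table, 5 were higher in Unknown.2, 5 in Unknown.5 and 4 in Unknown.6, and 22.6% of their pairs in the Unknown clusters were higher and 10.7% lower, beside 10.2% and 27.1% for all genes. Mmp2, a gelatinase, stood at 2.90 in Unknown.6, and the inhibitor Timp3 at 2.19 in Unknown.1 in the authors' deposited table. Mmp16, a membrane-bound member, was higher in 6 neuron clusters, with its largest value in CGRP-z (0.72, 88.8% of cells against 30.9%).

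Of 16 other integrin ligands, 9 were higher in Unknown.1, 9 in Unknown.5 and 7 in Unknown.6. In the Unknown clusters 33% of their pairs were higher and 20.5% lower, beside 10.2% and 27.1% for all genes. Mfge8, a ligand of αv integrins, stood at 3.13 in Unknown.3, fibronectin (Fn1) at 2.98 in Unknown.5 and vitronectin (Vtn) at 2.09 in Unknown.6 in the authors' deposited table. In neurons, Cd47 was highest in SST (1.59) and Edil3, another αv ligand, in Cold.sen (1.42, 99.7% of cells against 46.2%).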
